A study of Mus musculus with 4 samples.

Results

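Interferon-stimulated genes are genes whose transcription rises when a cell senses interferon, and 42 of them were followed here, gene by gene, across the cell classes of the mouse heart interstitium. The members were chosen by name as a list of antiviral effectors, sensors, transcription factors and GTPases of the interferon response. Earlier results of these data were known when they were chosen. Of the 42, 41 were found by symbol among the 32286 features of the deposited count table, and Mx2 was not matched. All 41 had at least 1 unique molecular identifier (UMI, 1 captured RNA molecule) in the analysed cells, with 737826 UMIs together.

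The samples are cardiac interstitial cells, that is the non-cardiomyocyte cells of the heart, from 2 hearts taken 1 month after stroke and 2 control hearts, measured by droplet single-cell RNA sequencing. All 4 carry the strain label Ccr2creERT2-Ai14, which names a tamoxifen-inducible Cre recombinase driven by the Ccr2 gene, active mainly in monocytes and their progeny, and a Cre-dependent tdTomato reporter. The stroke model, the control procedure, the Cre induction, age and sex are not given in the sources used here. The cells are joined in 1 table in which a suffix of 1 to 4 on each barcode marks the library, and the labels do not say which suffix is which sample. Stroke and control were therefore not compared, the joined table was read as 1 sample, the libraries are numbered only, and no p-value is given.

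Interferons bind receptors that signal through JAK kinases to STAT transcription factors, which with IRF9 bind the interferon-stimulated response element in target promoters. Type I interferons such as interferon beta act mostly through the response element and induce ISG15, IFIT, OAS and RSAD2 proteins, and interferon gamma acts mostly through another promoter sequence, the gamma-activated site, and favours the guanylate-binding and immunity-related GTPases. In the heart such genes have been studied in endothelial cells, resident macrophages and recruited leukocytes after injury.

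Promoter sequences are shown for some of the members, because the response element is known from the promoters of many interferon-stimulated genes. RefSeq promoters of build GRCm38.p6, each 300 bases long with 250 bases before and 50 after an annotated start, were matched for 31 of the members (36 promoters). The letters GAAANNGAAA, a core of the response element, were searched on both strands, so that TTTCNNTTTC is the same match on the other strand, and overlapping matches were counted. They stood in the promoter of 18 of 31 members (58.1%), against 1131 of 32851 promoters in all (3.44%). The letters TTCNNNGAA, a core of the gamma-activated site that reads the same on both strands, stood in 8 of 31 members (25.8%), against 8.30% of all promoters. The background shares count promoters and the member shares count genes. Counted by promoter, the response element core stood in 19 and the gamma-activated site core in 8 of the 36 member promoters. By role, the response element core was found for 5 of 6 matched GTPase genes, 3 of 4 IFIT genes, 2 of 4 oligoadenylate synthetase genes and 0 of 4 matched members with other roles. A match describes letters in the window only. The stretches shown were picked from promoters with a match to the response element core, so that each holds a match by choice. Oasl1, Oasl2, Ifit2, Samd9l and Cmpk2 were among the members whose promoters held no such match, and these are not shown. The stretches below are 90 bases each, 5′ to 3′ on the strand of the gene, all upstream of the start used, with each match in capitals:
Isg15: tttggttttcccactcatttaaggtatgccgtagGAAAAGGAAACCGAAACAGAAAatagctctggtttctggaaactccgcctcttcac
Ifit1: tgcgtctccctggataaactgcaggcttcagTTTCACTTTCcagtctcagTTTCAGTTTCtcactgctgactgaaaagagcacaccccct
Ifit3: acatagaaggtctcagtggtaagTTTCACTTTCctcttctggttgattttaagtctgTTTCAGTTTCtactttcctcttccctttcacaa
Ifit3b: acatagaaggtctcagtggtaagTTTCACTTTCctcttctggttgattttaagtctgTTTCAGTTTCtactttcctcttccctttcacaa
Rsad2: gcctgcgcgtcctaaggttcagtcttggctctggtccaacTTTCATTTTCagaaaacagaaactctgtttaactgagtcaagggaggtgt
Gbp7: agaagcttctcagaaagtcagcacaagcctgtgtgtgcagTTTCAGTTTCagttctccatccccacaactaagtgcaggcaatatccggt
Bst2: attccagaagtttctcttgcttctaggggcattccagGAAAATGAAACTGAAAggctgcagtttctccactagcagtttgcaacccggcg

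The Isg15 stretch lies at chr4:156200841-156200930 on the minus strand, with 3 overlapping matches from 78 to 57 bases before the start. The Ifit1 stretch lies at chr19:34640754-34640843 on the plus strand, with 2 matches from 104 to 76 bases before the start. The Ifit3 (chr19:34583350-34583439) and Ifit3b (chr19:34607746-34607835) stretches, both on the plus strand, differ at 0 of 90 bases, and the transcripts of the pair were 97.8% identical over 1700 aligned columns, so that counts of Ifit3 and Ifit3b are uncertain as to which copy they came from. Rsad2 lies at chr12:26456523-26456612 on the minus strand, Gbp7 at chr3:142530243-142530332 on the plus strand and Bst2 at chr8:71537550-71537639 on the minus strand. Members also lie close together in the genome. In RefSeq, 20 of the 42 stand in 8 runs of neighbours with gaps of at most 1000000 bases, among them Ifit2, Ifit3, Ifit3b and Ifit1 on chromosome 19, Gbp7, Gbp3 and Gbp2 on chromosome 3, and Oas2, Oas3 and Oas1a on chromosome 5.

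The 4 libraries held 31955157 to 45834980 UMIs in 9168 to 10473 barcodes, and 37465 cells were analysed (8600 to 9970 per library), with a library median of 2568 to 3484 UMIs per cell. Cells were grouped without the members among the clustering genes and named from marker lists, giving 19 classes of at least 50 cells, each written as X-like because its name rests on RNA alone. They range from 14925 capillary-like or general endothelial-like cells (called capillary-like here) and 7717 fibroblast-like cells to 93 mast cell-like cells, and 3570 cells lay in clusters left without a name. Set against the label of cardiac interstitial cells, endothelial, fibroblast, mural and immune markers led most of the classes. Cardiomyocyte-like cells formed no class of at least 50 cells, with 33 cells in cluster 34. Cardiomyocyte genes were also among the leading genes of unnamed clusters of 19 to 51 cells that held capillary markers too. Erythroid genes were among the leading genes of unnamed clusters of 346 and 118 cells. Of 37327 distinct barcode sequences, 138 occurred in more than 1 library. Levels are UMIs of a gene per 1000000 UMIs of the class (CPM), pooled over libraries unless each is named, and every interval is an exact 95% interval that covers counting error only, not the spread between hearts. The highest class of a gene within a library was taken only among classes with at least 20 cells in every library. Schwann-like, smooth muscle-like and mast cell-like cells were left out of these rankings.

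Added over all 41 members, transcripts were most abundant in monocyte-like and neutrophil-like cells, in capillary-like and arterial-like endothelium, and in macrophage-like cells, and least abundant in lymphoid-like cells. Monocyte-like cells, the circulating precursors of inflammatory macrophages, held 4320, 8934, 7870 and 6028 CPM in libraries 1 to 4, and 6807 CPM (6679 to 6937) over all. This class of 170 cells joined 3 clusters with different leading genes. Cluster 43 (115 cells, led by Chil3, Ly6c2 and Plac8) held 10035 CPM (9819 to 10254), with 6765, 14444, 9851 and 9940 CPM in 31, 25, 49 and 10 cells of libraries 1 to 4. Cluster 47 (30 cells), whose leading genes include the antigen-presentation gene H2-Ab1 and the granule gene Camp beside Ccr2, held 5026 CPM, and cluster 48 (25 cells), led by the granulocyte-precursor genes Ngp, Camp, Elane and Prtn3, held 1980 CPM. The class name rests mainly on cluster 43, and values of the class mix all 3 clusters. Neutrophil-like cells held 3274, 10376, 5159 and 6512 CPM, and 6769 CPM (6634 to 6905) over all. Either class was higher in some libraries, whereas cluster 43 alone stood above the neutrophil-like class in each of them. Capillary-like cells held 5419, 6888, 6209 and 5722 CPM, a narrower range, and arterial-like cells 5536, 7664, 6058 and 5379 CPM. Macrophage-like cells held 5119 to 6152 CPM and fibroblast-like cells 4540 to 6052 CPM, so that both overlapped the endothelial classes across libraries. At the low end stood T cell-like (1871 CPM), NK cell-like (1789 CPM), B cell-like (1671 CPM) and group 2 innate lymphoid cell (ILC2)-like cells, which held 884 to 973 CPM in the libraries.

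**Figure D1:**
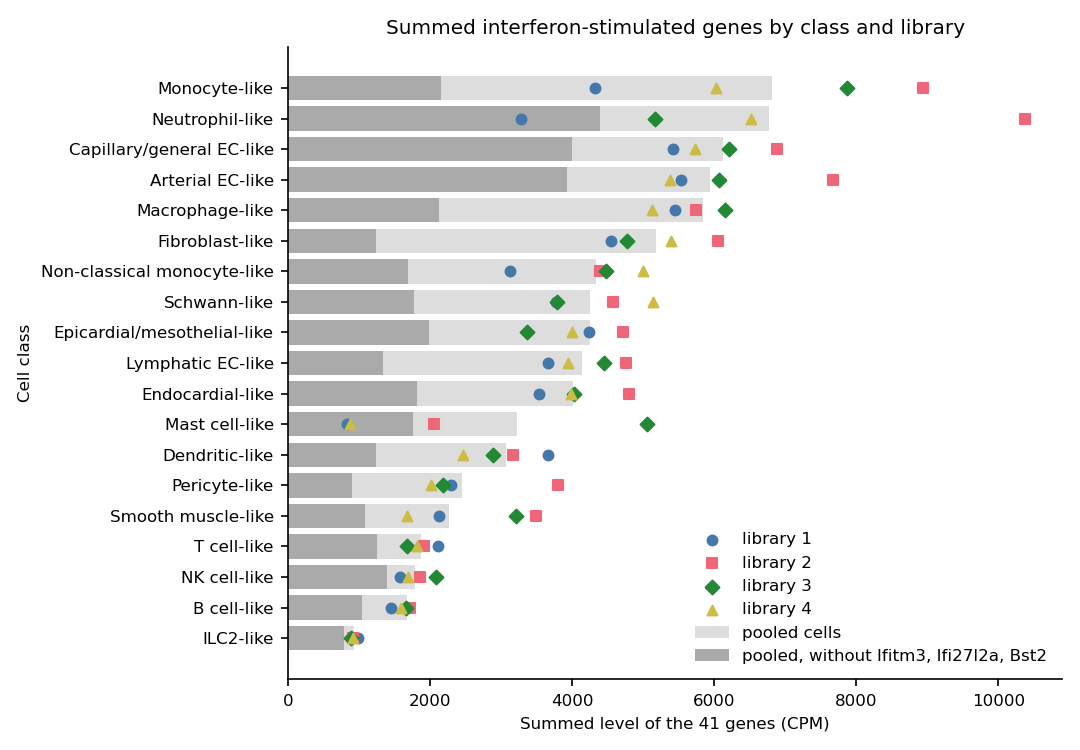
Summed level of the 41 members in each of the 19 cell classes (CPM, horizontal axis). Light bars are all cells pooled, dark bars the same without Ifitm3, Ifi27l2a and Bst2, and points are the 4 libraries. Monocyte-like and neutrophil-like cells have the highest light bars (6807 and 6769 CPM) with widely spread libraries, and ILC2-like cells the lowest, with libraries between 884 and 973 CPM.

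A few members decide this sum. Ifitm3, which blocks virus entry at membranes, gave 28.1% of all member UMIs, Ifi27l2a 20.9% and Bst2 6.40%, 55.3% together. Without these 3 members, cluster 43 held 2945 CPM. Neutrophil-like cells (4392 CPM) stood above capillary-like (3996 CPM) and arterial-like cells (3925 CPM), and monocyte-like (2143 CPM), macrophage-like (2127 CPM) and fibroblast-like cells (1239 CPM) stood below both endothelial classes. The members are therefore described by role.

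ISG15 is a ubiquitin-like protein that is attached to other proteins and also secreted, and USP18 removes it and dampens the type I receptor. Isg15 (chr4:156199424-156200818) was highest in neutrophil-like cells, with 221, 1252, 611 and 670 CPM in libraries 1 to 4 and 755 CPM (711 to 802) over all. The next class, arterial-like cells, held 287 CPM (273 to 302), a ratio of 2.63 (2.43 to 2.85). The order held in libraries 2 to 4, and in library 1 arterial-like cells were the highest. Usp18 (chr6:121245906-121270917) was spread differently, with 35.0, 53.0, 41.2 and 37.8 CPM in capillary-like cells (42.3 over all, 40.2 to 44.6) against 37.9 CPM (28.5 to 49.5) in neutrophil-like cells, whose intervals overlap.

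IFIT proteins bind viral RNA and block its translation. Ifit1 (chr19:34640889-34650009) had 50.6, 287, 119 and 122 CPM in neutrophil-like cells, 159 CPM over all (139 to 181), against 68.7 CPM (61.6 to 76.3) in arterial-like cells. Ifit3 (chr19:34583119-34588982) had 36.8, 321, 86.9 and 109 CPM in neutrophil-like cells and 154 CPM over all (134 to 176), against 91.0 CPM (60.0 to 132) in Schwann-like cells. Both were highest in neutrophil-like cells in libraries 2 to 4 and in arterial-like cells in library 1, where Schwann-like cells were not ranked in any library. Ifit3b followed Ifit3 (70.3 CPM in neutrophil-like cells), with the uncertainty between copies given above. Ifit2, the remaining member of the family, went the other way, with 135 CPM in arterial-like, 130 CPM in capillary-like and 33.0 CPM in neutrophil-like cells.

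Oligoadenylate synthetases make a second messenger that activates RNase L, and the OAS-like protein Oasl1 lacks that activity in mouse. Of all members, Oasl1 and Oas3 stood out most between their highest class and the next. Oasl1 (chr5:114923143-114937911) had 64.4, 158, 72.0 and 101 CPM in neutrophil-like cells and 104 CPM over all (87.9 to 122), against 19.5 CPM (15.8 to 23.7) in arterial-like cells, a ratio of 5.35 (4.11 to 6.97). Oas3 (chr5:120753098-120777684) had 101, 208, 84.4 and 130 CPM in neutrophil-like cells and 136 CPM over all (117 to 156), against 44.2 CPM (34.5 to 55.9) in monocyte-like cells, a ratio of 3.07 (2.32 to 4.09). Both genes were highest in neutrophil-like cells in each of the 4 libraries, and Oas3 was nearly without counts in capillary-like cells, with 4 UMIs in 14925 cells. Oasl2 (chr5:114896926-114912245) had 82.8, 452, 233 and 338 CPM in neutrophil-like cells and 303 CPM over all (275 to 333), against 252 CPM (231 to 274) in epicardial-like or mesothelial-like cells. Oas2 was highest in arterial-like cells (94.7 CPM) and Oas1a in monocyte-like cells (44.9 CPM, and 61.0 CPM in cluster 43), so that 3 classes share the top of this family.

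Restriction factors act on viral entry, replication or release. Ifitm3 (chr7:141009590-141010744) had 1875, 3114, 3309 and 2365 CPM in monocyte-like cells and 2717 CPM over all (2637 to 2800), against 1796 CPM (1738 to 1856) in the non-classical monocyte-like class and 43.8 CPM in ILC2-like cells. Monocyte-like cells were the highest class for Ifitm3 in every library, and it stood at 4160 CPM in cluster 43, 1731 CPM in cluster 47 and 712 CPM in cluster 48. Bst2 (tetherin, which holds budding virus at the cell surface; chr8:71534255-71537472) had 454, 635, 677 and 484 CPM in capillary-like cells and 580 CPM over all (572 to 588), against 521 CPM (501 to 541) in arterial-like cells. Neutrophil-like cells, highest for most of the effectors above, were the lowest of the 19 classes for Bst2 (33.0 CPM). The other 5 members found of this role led in neutrophil-like cells: Trim30a (353 CPM), Rsad2 or viperin, which makes a chain-terminating nucleotide (349 CPM), Rtp4 (243 CPM), Samd9l (238 CPM) and the nucleotide kinase gene Cmpk2 (63.2 CPM). For Cmpk2 the interval of the ratio to capillary-like cells (60.7 CPM) reached 1 or below. Rsad2 was highest in neutrophil-like cells of libraries 2 and 4 only, and in libraries 1 and 3 capillary-like cells were the highest (285 and 295 CPM, against 73.6 and 211 CPM in neutrophil-like cells).

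Sensors of nucleic acid were split between myeloid and endothelial classes. Ifi204, a sensor of DNA of the PYHIN family (chr1:173747293-173767069), had 191, 223, 180 and 144 CPM in macrophage-like cells and 189 CPM over all (179 to 199), against 176 CPM (156 to 198) in monocyte-like cells, whose intervals overlap, and 293 CPM (257 to 332) in cluster 43. Ifih1, which encodes the RNA sensor MDA5 (chr2:62595618-62646255), had 142, 222, 144 and 157 CPM in arterial-like cells and 159 CPM over all (148 to 170), against 129 CPM (125 to 133) in capillary-like cells. Arterial-like cells were the highest class for Ifih1 in every library. Ddx58, encoding the RNA sensor RIG-I, had 88.9 CPM in arterial-like and 87.8 CPM in neutrophil-like cells, which do not differ beyond counting error. Zbp1, a sensor of Z-form nucleic acid, was highest by class in non-classical monocyte-like cells at 142 CPM (160 CPM in cluster 43). Dhx58, the LGP2 gene, was highest in monocyte-like cells at 32.2 CPM (47.6 CPM in cluster 43).

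The transcription factors were led by different classes. Irf1, an early target of interferon gamma (chr11:53770014-53778374), had 229, 220, 185 and 217 CPM in macrophage-like cells and 203 CPM over all (193 to 214), against 191 CPM (127 to 277) in mast cell-like cells, and its highest class changed from library to library. Irf7, which amplifies type I interferon production (chr7:141263183-141266499), had 30.8, 255, 118 and 73.1 CPM in monocyte-like cells and 116 CPM over all (99.5 to 134), against 115 CPM (98.3 to 134) in neutrophil-like cells, and 188 CPM (159 to 220) in cluster 43. Irf9 (87.1 CPM in neutrophil-like cells) and Stat2 (112 CPM in capillary-like cells) are the partners that bind the response element.

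The GTPases, which attack the vacuoles of intracellular microbes, had an endothelial pattern. Summed over the 8 members they reached 1202 CPM in capillary-like, 1067 CPM in arterial-like and 637 CPM in endocardial-like cells, against 251 CPM in neutrophil-like and 205 CPM in fibroblast-like cells. Iigp1 had 341, 447, 377 and 492 CPM in capillary-like cells and 416 CPM over all (409 to 423), against 275 CPM (261 to 290) in arterial-like cells. Capillary-like cells were the highest class for Iigp1 in all 4 libraries, and fibroblast-like cells were well below (56.3 CPM). Gbp7 (chr3:142530336-142550151) had 256, 334, 280 and 325 CPM in capillary-like cells and 300.2 CPM over all (294 to 306), against 263 CPM (249 to 278) in arterial-like cells. Exceptions to the endothelial pattern were Gbp2, highest in epicardial-like or mesothelial-like cells (187 CPM, against 100.4 CPM in arterial-like cells), and Ifi47. By class, Ifi47 was highest in T cell-like (77.6 CPM) and NK cell-like cells (77.1 CPM), and it stood at 98.8 CPM in cluster 43.

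Of the members with other roles, Ifi27l2a, a small protein of the interferon alpha-inducible 27 family (chr12:103433873-103443680), had 1816, 2454, 1889 and 2471 CPM in fibroblast-like cells and 2150 CPM over all (2137 to 2162), against 1948 CPM (1917 to 1981) in macrophage-like cells. Ifi27l2a stood at 2646 CPM (2536 to 2760) in cluster 43, above the fibroblast-like class. Its level in capillary-like cells was 45.2 CPM, so that this member was low where most others were high. Parp14, an ADP-ribosyltransferase (chr16:35831892-35871518), had 194, 254, 218 and 224 CPM in capillary-like cells and 224 CPM over all (219 to 230), against 211 CPM (198 to 224) in arterial-like cells. Xaf1 had 176 CPM in capillary-like and 169 CPM in arterial-like cells, a ratio of 1.04 (0.968 to 1.12), and arterial-like cells were the higher in libraries 1 to 3. Ifi35 (93.9 CPM) was also highest in capillary-like cells, Ifi44 in arterial-like cells (96.3 CPM) and Lgals3bp in macrophage-like cells (110 CPM).

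**Figure D2:**
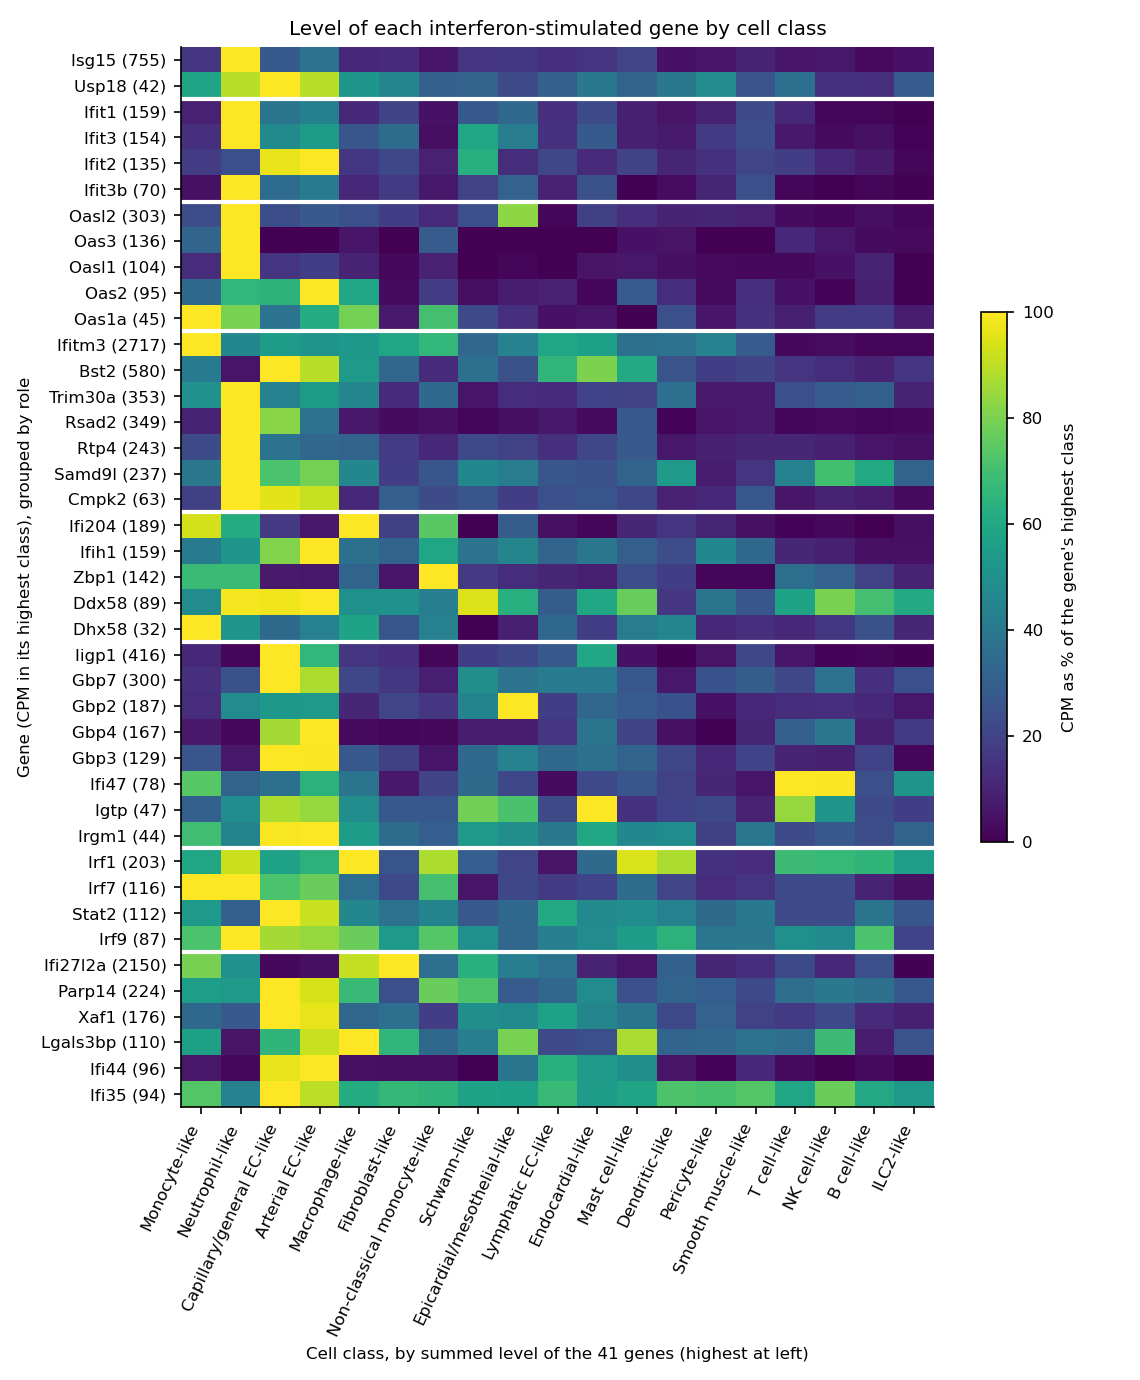
Level of each of the 41 members (rows, grouped by role) in the 19 cell classes (columns), coloured by CPM as a percentage of the level in the member's own highest class, whose CPM stands in brackets after the gene. The neutrophil-like column is brightest for most ISG15, IFIT and OAS rows, and the capillary-like and arterial-like columns for most GTPase rows, such as Iigp1 (416 CPM).

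Counting each member's highest class, 13 of 41 members led in neutrophil-like cells, where 5.52% of the 12275 features with at least as many UMIs as the least counted member led. For 11 of the 13 the interval of the ratio to the next class lay above 1, and for 11 the class led in at least 3 of the 4 libraries. Capillary-like cells led for 9 members (4 with such an interval, 5 in at least 3 libraries; 5.48% of all features) and arterial-like cells for 7 (3 and 5; 4.34%). Monocyte-like cells led for 4 (2 and 2; 2.92%) and macrophage-like cells for 3 (0 and 0; 2.98%). Cluster 43 alone stood above every other class for Ifitm3, Irf7, Oas1a, Dhx58, Ifi204 and Ifi27l2a, with an interval of the ratio above 1. For Irgm1, Ifi47 and Zbp1 it was also above, with an interval that reached below 1. The share of all features led by this cluster is not given here, and it was set apart after the data were seen. In all, 5 further classes led for 1 member each. They were endocardial-like (2.56% of all features), epicardial-like or mesothelial-like (5.76%), fibroblast-like (5.36%), non-classical monocyte-like (6.59%) and T cell-like cells (3.05%). Of the 19 classes, 9 led for none. These were B cell-like (3.50%), dendritic-like (2.62%), ILC2-like (4.31%), lymphatic-like (6.76%) and mast cell-like cells (5.65%). The others were NK cell-like (6.43%), pericyte-like (9.16%), Schwann-like (11.1%) and smooth muscle-like cells (5.94%).

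Set against all other cells, 20 of 41 members were at least 2-fold higher in capillary-like cells, where 10.1% of all features tested were. Their median log2 ratio was 0.96, against −0.21 over all features. In neutrophil-like cells 17 of 41 were at least 2-fold higher, against 9.69% of all features (median log2 0.61 against −1.52). Without library 2 the count was 11, and the share of all features for that set of cells is not given here. In arterial-like cells 12 of 41 were, against 5.95% of all features (median 0.76 against −0.17). With all libraries pooled, both endothelial classes and neutrophil-like cells thus lay above the background share. The members were chosen with earlier results of these data known, which limits what this comparison with all features can show. Monocyte-like cells had 7 of 41 (10.5% of all features), cluster 43 alone 10 of 40 (10.3%), and macrophage-like cells 6 of 41 (10.6%). Non-classical monocyte-like cells had 4 of 41, near their 11.2%, and T cell-like cells 3 of 41, near 9.66%. In fibroblast-like cells 1 member, Ifi27l2a, was at least 2-fold higher (14.1% of all features) and 21 were at least 2-fold lower (29.6%). In B cell-like cells 0 of 41 were higher (10.5%) and 27 lower (39.4%). Epicardial-like or mesothelial-like cells had 2 of 41 higher (8.25%), NK cell-like cells 2 of 40 (10%) and mast cell-like cells 1 of 29 (5.54%). No member was 2-fold higher in 7 other classes, namely dendritic-like (0 of 40, 8.86%), endocardial-like (0 of 41, 6.57%), ILC2-like (0 of 40, 7.63%), lymphatic-like (0 of 38, 5.64%), pericyte-like (0 of 40, 8.49%), Schwann-like (0 of 36, 7.16%) and smooth muscle-like cells (0 of 38, 5.64%).

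Within classes, members differed little between capillary-like clusters. The members were left out of the clustering, whereas the background features include the genes that formed the clusters. A low share of members against that background is therefore partly built in. The 9 clusters held 5240 to 7935 CPM of members. Summed over the 8 clusters other than cluster 39, 1 of 315 member values was 2-fold higher or lower than in the other capillary-like cells, against 4.54% of all features. It was Ifi47 in cluster 41, with 5.45 against 28.9 CPM. Cluster 39, led by Tcf15, Fabp4 and Cxcl9 (297 cells), was highest with 6482, 8388, 9470 and 7739 CPM in libraries 1 to 4. It had 2 of 40 members higher, Ifi27l2a (151.9 against 43.5 CPM) and Zbp1 (24.1 against 9.93 CPM), where 1.70% of all features were. Cluster 9, led by Kirrel3, G630055G22Rik and Samd5 and left without a name (1976 cells), had more Iigp1 (726 CPM) and Gbp4 (196 CPM) than capillary-like cells (416 and 144 CPM) and less Rsad2 (134 against 288 CPM). Of 40 members, 1 was 2-fold higher than in capillary-like cells, Ifi27l2a (128 against 45.2 CPM), and 1 lower, Rsad2, against 5.74% and 4.63% of all features.

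Ifi27l2a also differed within fibroblast-like and endocardial-like cells. It had 3079 CPM in the fibroblast-like cluster led by Cd248, 1795 CPM in that led by Cxcl14 and 1239 CPM in that led by Mfap4, whose member sums were 5887, 5312 and 3810 CPM. A small fibroblast-like cluster led by Opcml (102 cells) had 1396 CPM of Ifi27l2a. In the cluster led by Cd248, 0 of 40 members, Ifi27l2a included, were 2-fold higher than in the other fibroblast-like cells, against 378 of 15880 features. In endocardial-like cells, which line the chambers, Ifi27l2a had 555 CPM in cluster 13 (Cytl1, Ccdc141, Clu) against 88.4 CPM in the rest. That cluster had 4 of 40 members 2-fold higher, where 7.13% of all features were.

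Macrophage-like cells varied more. Sub-clusters of the Lyve1 type, the long-lived resident type, held 7284 and 7579 CPM of members and the MHC-II type 5994 CPM. The cardiomyocyte genes Tnnt2 and Myl2 were among the leading genes of the MHC-II sub-cluster, and the part of mixed droplets in its value was not tested. An unnamed sub-cluster led by Ccl4 and Cd83, with Atf3, Fos and Gadd45b among its leading genes, held 6519 CPM. Irf1 stood at 422 CPM in the Ccl4 sub-cluster against 149 CPM in the other macrophage-like cells, and at 71.4 CPM in the first Lyve1-type sub-cluster against 235 CPM. The cause of the Irf1 difference was not tested. The cavity type, with markers of serous cavity macrophages, formed 2 sub-clusters. The larger, with Slpi, Saa3 and Alox15 leading, held 3773 CPM in 79 cells and the smaller 3298 CPM in 20 cells. In the larger, 29 of 39 members were at least 2-fold lower than in the other macrophage-like cells, against 27.7% of all features, with a median log2 ratio of −1.42 against −0.50. Rsad2 had 1.17 against 27.5 CPM, Ifit3 2.34 against 46.3 CPM and Ifi27l2a 408 against 2153 CPM, while Ifitm3 stayed at 2050 CPM. The 99 cavity-type cells came from libraries 2 (67 cells), 4 (31) and 3 (1), with 0 from library 1. Without them macrophage-like cells held 6231 CPM, with 5441, 6979, 6158 and 6142 CPM in libraries 1 to 4. A further sub-cluster of 85 cells was led by the endothelial genes Kdr, Cyyr1 and Ptprg, and the part of mixed droplets in its 6043 CPM was not tested.

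Among classes with at least 20 cells in every library, the median ratio of the highest to the lowest library over the members was largest in neutrophil-like cells, followed by ILC2-like cells (3.78, from 7 members). Of the 34 of 41 members with enough counts, library 2 was the highest for 31 in neutrophil-like cells, where it was the highest for 25.8% of all features. Rsad2 had 73.6, 656, 211 and 317 CPM there in libraries 1 to 4. The highest library stood at least 2-fold above the lowest for 32 of 34 members, against 47.4% of all features, with a median ratio of 4.08 against 1.94. In monocyte-like cells 29 of 33 members reached that ratio (38.8% of all features), and library 2 was highest for 24 of 33 (29.5%). The makeup of that class moved with the library: cluster 48, the lowest in members, gave 13 of 46 cells in library 1, 6 of 36 in library 2, 4 of 64 in library 3 and 2 of 24 in library 4, and cluster 47 gave 12 of the 24 cells in library 4. Its part in the library difference was not tested, and within cluster 43 library 2 had the highest and library 1 the lowest sum. Library 2 was also the highest for 33 of 40 members in fibroblast-like cells (23.8%), 32 of 40 in arterial-like cells (29.5%) and 26 of 40 in capillary-like cells (23.7%). The size was smaller there: 0 of 40 members reached a 2-fold range in capillary-like cells (12.5% of all features), 5 of 40 in arterial-like cells (17.2%) and 7 of 40 in fibroblast-like cells (9.13%). In macrophage-like cells library 2 was highest for 14 of 39 members (18.4%), and without the cavity type, which was low in members and mostly from library 2, for 23 of 37 (28.9%). In T cell-like cells library 1 was highest for 13 of 28 (36.8%). Which condition library 2 belongs to is not known here.

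**Figure D3:**
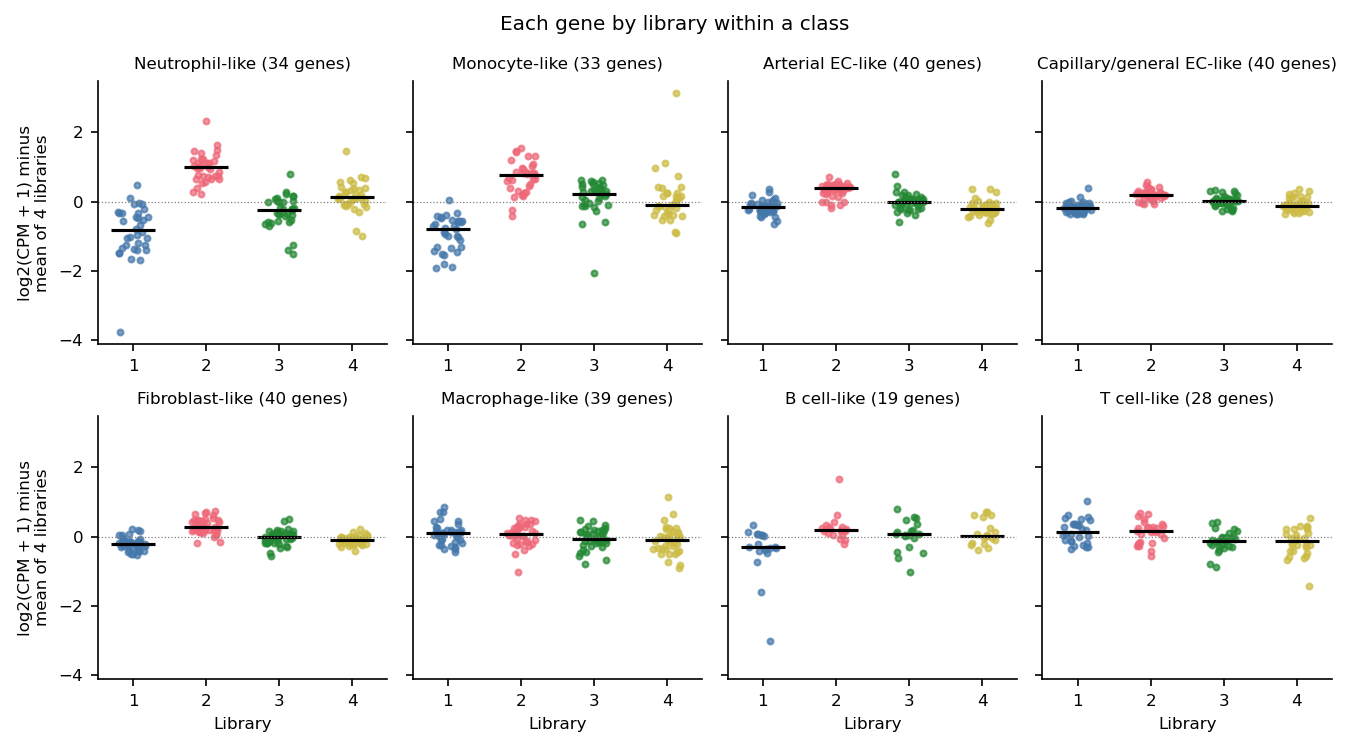
Each member in each library as log2(CPM + 1) minus its mean over the 4 libraries (vertical axis), in 8 cell classes, with 1 point per member and a black line at the median. The medians run from −0.83 (library 1) to 0.99 (library 2) in neutrophil-like cells, from −0.17 to 0.20 in capillary-like cells and from −0.08 to 0.10 in macrophage-like cells.

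The makeup of the neutrophil-like class also moved between libraries. Genes of neutrophil granules made during maturation, which are not members and were chosen after their values were seen, were highest in library 1: Camp had 12329, 5285, 47.2 and 1122 CPM, and Ltf 5123, 2063, 2.48 and 356 CPM in libraries 1 to 4. Ngp had 15520, 6259, 159 and 1470 CPM. Library 1, with 44 of the 431 cells, was thus lowest in the members and highest in these genes, whereas library 2 was highest in the members and second in these genes. Their part in the member levels was not tested.

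Whether the members are carried evenly or by some cells of a class was read from 10 of them, Isg15, Usp18, Ifit1, Ifit2, Ifit3, Ifit3b, Rsad2, Cmpk2, Oasl2 and Irf7. Each cell was thinned to 1000 UMIs, shallower cells were left out, and a cell with at least 3 UMIs of these genes was called indicator-high, which is a range and not a cell type. In neutrophil-like cells 95 of 419 were indicator-high (22.7%, 18.7 to 27.0), with 6.82%, 41.9%, 15.4% and 18.0% in libraries 1 to 4. In arterial-like cells 239 of 1900 were (12.6%, 11.1 to 14.2). In capillary-like cells 1621 of 13657 were (11.9%, 11.3 to 12.4), with 9.90%, 13.8%, 13.5% and 9.69% in the libraries. The share was 2.88% in macrophage-like, 2.76% in endocardial-like and 2.59% in fibroblast-like cells. B cell-like cells gave 2 of 1485 (0.135%), at a median depth of 4000 UMIs before thinning against 2989 in neutrophil-like and 2117 in capillary-like cells; that share is the level of a class at the low end. NK cell-like cells gave 0 of 223, which allows a share of up to 1.35% by the limit of 3 cells and 1.64% by the exact interval. Many cells lay near the threshold: of capillary-like cells 642 had exactly 3 of these UMIs and 1361 had 2, and of neutrophil-like cells 29 and 44. Without thinning the shares were 49.0% in neutrophil-like and 27.4% in capillary-like cells.

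**Figure D4:**
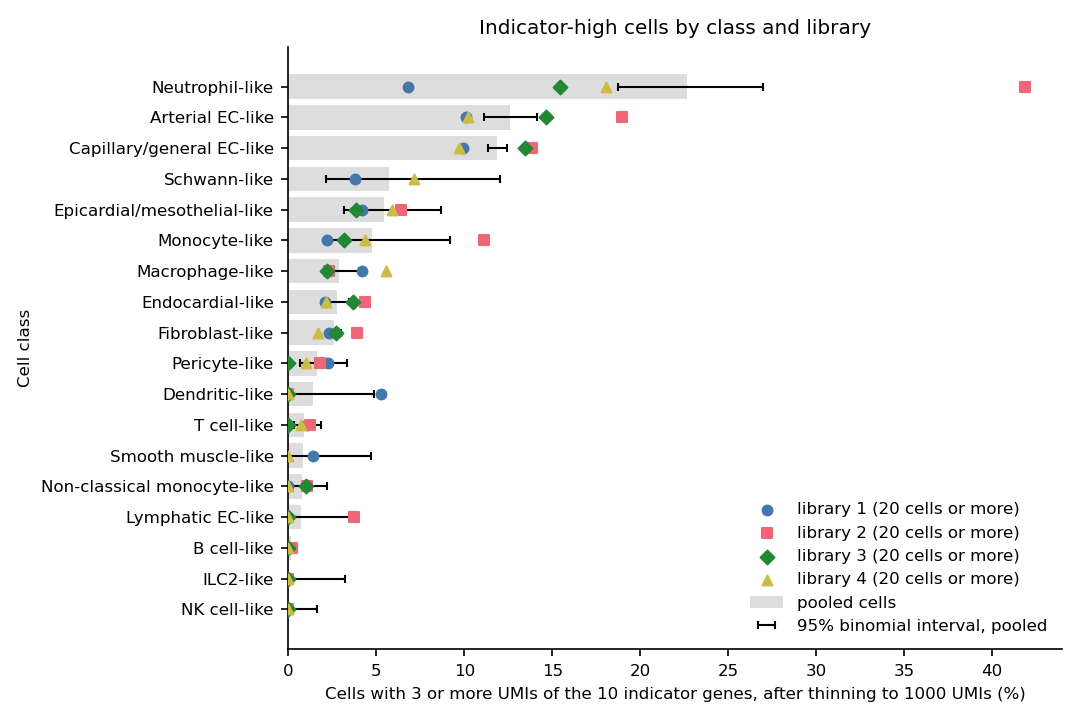
Share of cells with at least 3 UMIs of the 10 indicator genes after thinning to 1000 UMIs (percent, horizontal axis), in classes with at least 100 such cells. Bars are pooled cells with their exact 95% binomial interval, and points are libraries with at least 20 cells. Neutrophil-like cells stand at 22.7% with libraries from 6.82% to 41.9%, and arterial-like and capillary-like cells at 12.6% and 11.9%.

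With libraries pooled, the variance of the indicator count was 10.6 times its mean in neutrophil-like cells. It was 3.57 times in capillary-like, 3.16 in fibroblast-like and 2.96 in arterial-like cells. The mean counts were 2.26, 1.03, 0.341 and 0.998 in that order, and the ratio was not adjusted for them. The top 5% of cells held 44.3% of the indicator UMIs in neutrophil-like, 34.6% in capillary-like, 52.2% in fibroblast-like and 33.7% in arterial-like cells. Cells with none were 45.1%, 53.7%, 79.8% and 56.3%. These measures thus order the classes differently.

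The members outside the 10 were then compared between indicator-high cells and cells with 0 indicator UMIs of the same class. Of these 31 members, those with under 5 UMIs expected on the smaller side were not tested singly but are in the sums. The expected UMIs were taken from both groups of cells together. A member with few UMIs in cells with none could therefore be tested only through its UMIs in indicator-high cells. The counts of higher members partly follow from this, and the features of the background shares passed the same rule. In capillary-like cells the 31 summed to 9695 CPM in indicator-high cells, against 3872 CPM in cells with none. Of 30 members tested, 26 were at least 2-fold higher, against 1.43% of all features, with a median log2 ratio of 1.58 against −0.04. Oasl1 had 77.7 against 4.09 CPM, Ifi44 282 against 44.2 CPM, Ifi204 102 against 16.8 CPM and Iigp1 816 against 325 CPM. The 4 members below 2-fold were Lgals3bp (1.98), Ifitm3 (1.95), Ifi27l2a (1.74) and Irf1 (1.52). In the other classes most members tested were higher too: 20 of 27 in arterial-like cells (2.78% of all features), 18 of 19 in fibroblast-like cells (1.67%), 17 of 18 in neutrophil-like cells (6.29%), 7 of 9 in endocardial-like cells (1.77%) and 5 of 7 in macrophage-like cells (3.47%). In neutrophil-like cells 49 of the 95 indicator-high cells came from library 2 and 3 from library 1, so that the pooled values there also hold the difference between libraries. Within single libraries, with fewer counts, 8 of 14 were higher in library 2 (11.5%), 1 of 3 in library 3 (4.94%) and 5 of 6 in library 4 (7.37%), and without library 2 6 of 8 (6.28%). In each of these 6 classes, with libraries pooled, most members tested were higher where the 10 indicator genes were high.

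**Figure D5:**
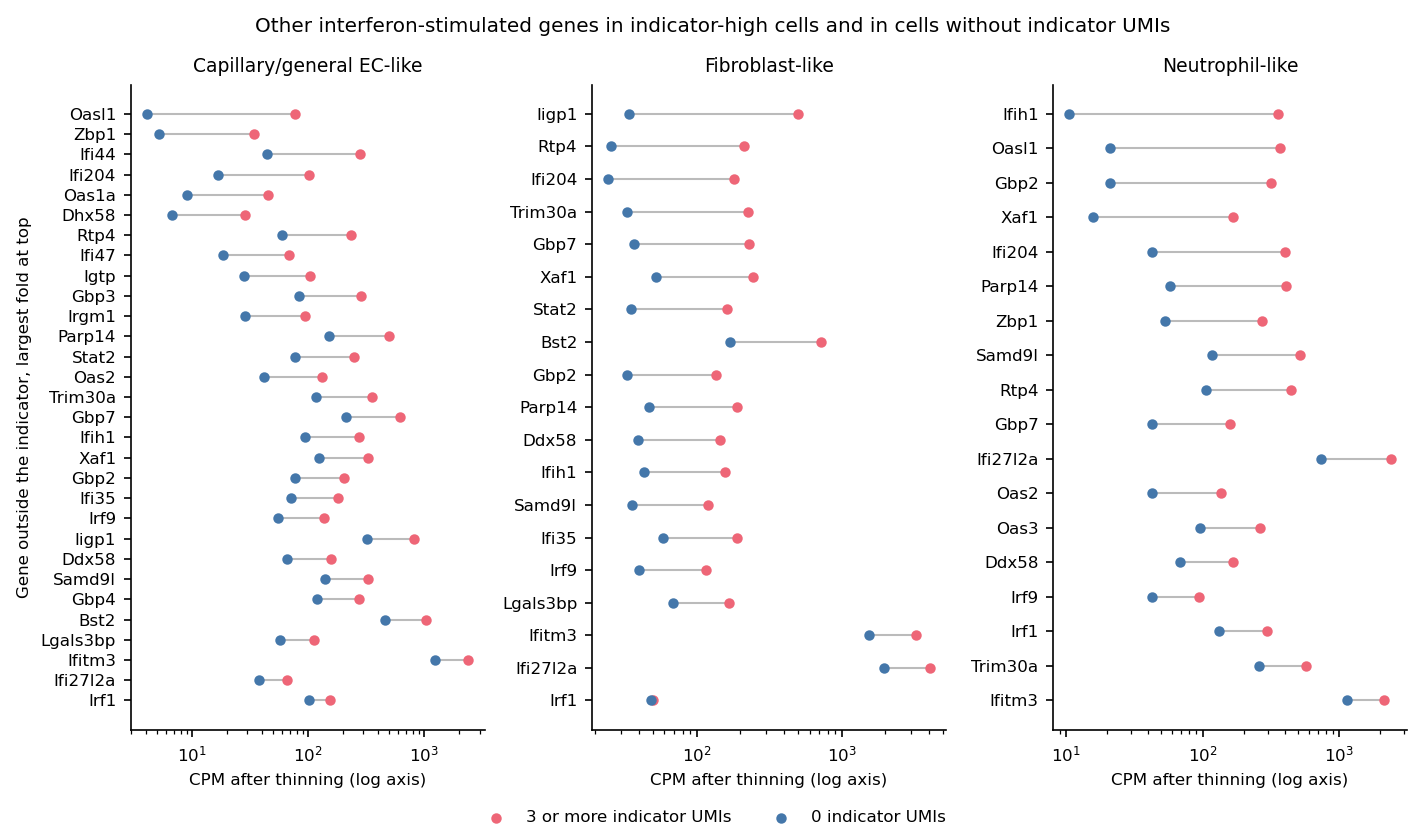
Level of each tested member outside the indicator (CPM after thinning, log axis) in indicator-high cells (red) and in cells with 0 indicator UMIs (blue) of the capillary-like, fibroblast-like and neutrophil-like classes, with the largest fold at the top. Red points lie to the right of blue ones in nearly every row, as for Iigp1 in fibroblast-like cells (503 against 34.1 CPM), and Irf1 in fibroblast-like cells (50.3 against 48.3 CPM) lies at the bottom.

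Which other members went with the 10 differed by class. In fibroblast-like cells Iigp1 had 503 CPM in indicator-high cells against 34.1 CPM in cells with none, 14.7-fold, and Bst2 719 against 170 CPM, whereas Irf1 had 50.3 against 48.3 CPM. Markers of the capillary class, where Iigp1 peaks, summed to 85.4 CPM in indicator-high and 79.5 CPM in the other fibroblast-like cells, with 5 and 8 of the 8 seen. In neutrophil-like cells Ifih1 had 358 against 10.6 CPM and Oasl1 368 against 21.2 CPM, and Iigp1 was read from 1 UMI in indicator-high cells against 0. Ifih1 and Oasl1 passed the count rule there only through their UMIs in indicator-high cells. Capillary markers summed to 284 against 212 CPM and B cell markers to 232 against 89.9 CPM in neutrophil-like cells, and their part was not tested. The 8 GTPase members, counted the same way as a group of their own, were high in 39.7% of indicator-high capillary-like cells, against 15.2% of all capillary-like cells. The same shares were 38.1% against 13.2% in arterial-like, 16.1% against 0.756% in fibroblast-like, and 4.21% against 1.19% in neutrophil-like cells, the last from 4 and 5 cells.

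Of the rest of the interferon pathway, 81 of 83 listed genes were found, with Mx1 and Cxcl11 not matched. The ligands were scarce: 9 of 11 had 0 UMIs in all analysed cells, Ifnk had 9, and Ifng, the gamma interferon made by lymphocytes, had 386. Ifng had 281, 177, 70.8 and 207 CPM in NK cell-like cells of libraries 1 to 4 and 188 CPM over all (164 to 215), against 48.4 CPM in T cell-like cells. The listed receptor genes had UMIs in every class except Ifnlr1, a lambda interferon receptor gene with 255 UMIs in all and 0 in smooth muscle-like cells. Peaks among receptors and kinases were 728 CPM for Ifngr1 in the non-classical monocyte-like class, 295 CPM for Ifnar2 in the epicardial-like or mesothelial-like class and 678 CPM for Jak1 in the NK cell-like class. Irf8, a factor of myeloid identity, was highest in dendritic-like cells (651 CPM). Non-classical monocyte-like cells also led for the DNA sensor gene Aim2 (178 CPM), the RNA sensor gene Tlr7 (140 CPM), the phosphatase gene Ptpn6 (481 CPM) and Samhd1, whose product depletes nucleotides (780 CPM, against 778 CPM in neutrophil-like cells). Among other interferon-induced genes, Ly6a (1756 CPM) and Ly6e (1477 CPM) were highest in arterial-like cells.

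In the indicator-high capillary-like cells, 27 of 33 other interferon-induced genes tested were at least 2-fold higher than in cells with none, against the 1.43% of all features given above. The chemokine gene Cxcl10 had 32.7 against 1.23 CPM there. Of 5 brakes 1 was higher, Adar (80.8 against 36.2 CPM). Of 6 receptors 0 were higher, with Ifnar1 at 63.5 against 54.6 CPM, and 1 was lower, Ifnlr1, with 1.85 against 4.91 CPM, from 3 against 36 UMIs. Of 8 upstream sensors and adaptors 0 were higher, and 1 was lower, the adaptor gene Ticam1, with 1.85 against 4.77 CPM, from 3 against 35 UMIs. In fibroblast-like cells 16 of 17 other interferon-induced genes, and in neutrophil-like cells 15 of 18, were at least 2-fold higher. The limit of the count rule given above holds for these genes too.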

How the data were processed

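Single-cell libraries were made with the 10x 3′ v3.1 chemistry after mincing, enzymatic digestion, straining, red cell lysis, dead-cell removal and sorting of live nucleated cells, per the labels' protocols. The deposited values are whole-number UMI counts of 32286 features in 39731 barcodes, made by the authors with Cell Ranger 7.1.0 on mm10, per the submitters' processing notes. The way libraries were joined and any depth equalisation are not stated in the labels.

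Barcodes with at least 500 UMIs, 250 genes and at most 15% mitochondrial UMIs were kept. Scrublet (scanpy 1.11.5) doublet calls were removed per library (446, 359, 213 and 427). In library 3 the automatic threshold marked 1 barcode (0.0113%), so 0.188, the median over libraries 1, 2 and 4, was applied. Cells were clustered on 2000 variable genes (30 components, 15 neighbours, Leiden resolution 1, leidenalg 0.10.2), leaving out 329 genes (members, pathway, indicator, mitochondrial, ribosomal, sex-linked, reporter and haemoglobin genes), and named from 25 lists of 191 markers. Leaving out haemoglobin genes, limiting marker folds, splitting mixed clusters and the rules for unnamed clusters were decided after the first clusters were seen.

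CPM are summed UMIs of a class per 1000000 (numpy 2.4.6, scipy 1.17.1). A feature entered a 2-fold comparison with at least 5 expected UMIs on the smaller side, and a count of 0 was set to 3 UMIs. Intervals are 95% exact Poisson, binomial (Clopper-Pearson) or conditional binomial and cover counting error only. Genes given in full are the 2 with the highest peak in each role, and any whose highest class is at least 3-fold above the next with at least 30 UMIs, and 2 per pathway list. Values of cluster 43 alone, of macrophage-like cells without the cavity type and of neutrophil-like cells within libraries were added after the data were seen. The scripts were tested on simulated data. The count of signalling kinases and factors in indicator-high cells is not reported here. The members and lists were chosen with earlier results of these data known. Promoter sequences and positions are from RefSeq tables of GRCm38.p6. No test between stroke and control was made, because libraries are not tied to samples.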

Additional observations from a re-analysis of the deposited data

How the results depend on the processing

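No paired analysis was possible because the barcode suffixes are not tied to the labelled samples and carry no replicate number. In the 6 main classes (those of the sums given per library), the summed member level moved by less than 1 SD over the libraries in 60 checks and by more in 8. Of these, 2 were chosen after seeing the data: macrophage-like cells without the cavity type (6231 CPM) moved by less, and the largest monocyte-like cluster alone (10035 CPM) by more. The other 7 were the sum without the 3 most abundant members (arterial-like 3925, capillary-like 3996, fibroblast-like 1239, macrophage-like 2127 and monocyte-like 2143 CPM) and monocyte-like cells under a filter of 1000 UMIs, 500 genes and 10% mitochondrial UMIs (9557 CPM) or Leiden resolution 2 (9463 CPM). The class on top was neutrophil-like when list genes were kept in clustering, without library 3, and without those 3 members, and monocyte-like otherwise. The highest library over the lowest in monocyte-like cells was 3.32 without those 3 members, against 2.07 with them. At a 1.5-fold threshold 27 members were higher in arterial-like (12.4% of all features), 31 in capillary-like (18.2%) and 10 in macrophage-like cells (15.9%). With each library left out in turn the count at 2-fold was 11 to 19 in neutrophil-like, 19 to 22 in capillary-like and 10 to 15 in arterial-like cells. It was 5 to 8 in macrophage-like and 5 to 7 in monocyte-like cells. The shares of all features for these sets of libraries are not given here. The indicator-high share over the same sets was 15.2% to 26.2% in neutrophil-like, 3.03% to 5.74% in monocyte-like and 11.2% to 12.7% in capillary-like cells. With at least 2 or at least 5 indicator UMIs in place of 3, or thinning to 2000 UMIs, the share was 11.3%, 0.595% and 14.1% in monocyte-like, 21.8%, 4.52% and 26.5% in capillary-like, 6.11%, 0.912% and 5.80% in fibroblast-like, 22.7%, 5.00% and 27.3% in arterial-like, and 7.11%, 0.677% and 7.46% in macrophage-like cells, and 38.2% in neutrophil-like cells at 2000 UMIs. Cells high in both gene groups at 2 UMIs were 47.9% of indicator-high capillary-like and 50.1% of arterial-like cells. In the other 13 classes the sum stayed within that spread in 124 checks and moved in 17, and the count at 2-fold, mostly from small numbers, stayed within 1.5 times in 43 and moved in 85. The cause of these shifts was not tested. Depth limits what can be said of members with few counts, such as Oas3 outside myeloid cells, and of classes under 200 cells, where shares rest on a handful of cells.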
